A study of Rattus norvegicus with 9 samples.

Results

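Sncb and Sncg, the genes of beta- and gamma-synuclein, were followed in rat brain as 2 of the 22093 genes with a single symbol on the Clariom D rat array. Each was taken as the row whose annotation gives that symbol alone, the brightest row being kept where a gene has several. Each had 1 row, so signal did not enter the choice of row. The pair was selected on family membership and on values already seen in these arrays, namely the log2 difference of Sncg between stimulated and sham hippocampus. That difference is therefore given as a description, without a test. The regional difference of Sncg uses the same sham hippocampal arrays, so it is not independent of this choice.

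The 9 arrays formed 3 groups of 3, all from male rats. Hippocampus of both sides was taken 4 h after transcranial focal stimulation, TFS below, in which electrodes on the scalp deliver current, here at 300 Hz and 50 mA for 5 min. Hippocampus and parietotemporal cortex of both sides were taken from sham rats, which were handled alike and received no current. No strain or age is stated in the labels. Nothing in them ties an array to an animal of its own, so the p-values reflect differences among arrays that could be technical.

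Synucleins are small proteins without a fixed fold in solution, whose repeats near the amino end form a helix on the surface of synaptic vesicles. In mouse they have been described as helpers of the SNARE proteins that fuse vesicles with the terminal membrane. Beta-synuclein is abundant in nerve terminals throughout the forebrain. Gamma-synuclein is best known from sensory, motor and brainstem neurons and retinal ganglion cells, and in mouse cortex and hippocampus Sncg marks a class of interneurons that release cholecystokinin.

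The 2 promoters are shown because they give the identity of each gene's start. Other stretches of the 2 genes were not compared. Each runs from 250 bases before to 50 bases after the RefSeq start on build GRCr8, 5′ to 3′ on the gene's strand. The Sncb window is chr17:9851684-9851983 on the plus strand, and the Sncg window is chr16:9711287-9711586 on the minus strand. Capitals mark the GC box GGGCGG and the cAMP response motif TGACG, each searched on both strands and with no overlap between them.
Sncb: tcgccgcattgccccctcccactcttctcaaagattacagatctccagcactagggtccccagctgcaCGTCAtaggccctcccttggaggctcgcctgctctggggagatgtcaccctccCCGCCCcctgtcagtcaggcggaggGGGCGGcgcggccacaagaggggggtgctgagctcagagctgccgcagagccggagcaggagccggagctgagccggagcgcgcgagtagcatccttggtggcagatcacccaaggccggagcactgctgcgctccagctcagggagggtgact
Sncg: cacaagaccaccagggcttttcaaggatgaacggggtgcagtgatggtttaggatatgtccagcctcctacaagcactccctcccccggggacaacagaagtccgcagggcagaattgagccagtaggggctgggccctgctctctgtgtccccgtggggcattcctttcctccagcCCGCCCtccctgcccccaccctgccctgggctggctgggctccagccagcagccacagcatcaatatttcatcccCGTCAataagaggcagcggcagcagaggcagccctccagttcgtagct
The Sncb window held 2 GC boxes and the Sncg window 1, and each held 1 cAMP response motif. Of 33469 rat promoters of this length 33.1% held the GC box and 21.2% the cAMP response motif. The GATA box AGATAA, the E-box CACGTG and the TATA box TATAAA, found in 11.6%, 6.42% and 14.2% of the promoters, were not among the letters of either window. The Sncb window was 67% G and C with 18 CpG pairs, and the Sncg window 61.7% with 8, against medians of 51.7% and 7. A match is a description of the letters only.

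Values are log2 array signal, in which 1 unit is a doubling of signal, and levels are compared between arrays for 1 gene and not between genes. Array medians lay between 4.95 and 5.04, and the median of positive control probe sets lay 3.67 to 4 above that of negative ones. The sham arrays numbered 1 had the highest medians, 5.04 in both regions, and the smallest control gaps, 3.67 in cortex and 3.73 in hippocampus. A signal of 7.57, under which 95% of negative control means fell, is taken as the top of the background range. Regional lists mostly, but not wholly, followed the tissue labels: in sham hippocampus against cortex the CA field list had 7 members higher and 1 lower of 14 tested, and the cortical layer list 2 higher and 7 lower of 16, where 5.99% of all genes were called higher and 6.46% lower. Crym, on the cortical layer list, was higher in hippocampus by 0.79 (limma adjusted p = 0.0113). In sham rats Cpne4, a gene of CA3 pyramidal neurons, was 1.90 log2 units higher in hippocampus than in cortex (limma adjusted p = 0.000104). Lamp5, a gene of upper cortical layers that is also on the other interneuron list, differed by -1.49 (limma adjusted p = 0.000321). Each had the largest difference on its regional list. The brightest members of these lists, Spock1 at -0.12 and Pcp4 at -0.04, were not called. The sham arrays numbered 1 of both regions stood apart on the second principal component of the 15522 genes tested, at 9.7 for hippocampus and 6.4 for cortex, with the other 7 arrays between -4.7 and 1.3. This component held 8.96% of the variance.

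Sncb was a bright gene, above the background range on all 9 arrays, and its level lay lower in hippocampus than in cortex and close to sham after TFS. It measured 8.61, 8.58 and 8.56 on TFS hippocampal arrays 1, 2 and 3, against 8.59, 8.56 and 8.38 on sham hippocampal arrays. Sham cortical arrays gave 8.93, 8.74 and 8.95. All 6 hippocampal arrays lay below all 3 cortical ones. Sham hippocampus lay wholly below cortex in 12.7% of all genes, while the TFS and sham hippocampal arrays overlapped. In order of level the groups ran from sham hippocampus through TFS hippocampus to sham cortex, and the first 2 of these did not differ beyond their spread.

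Between TFS and sham hippocampus the Sncb difference was 0.08 log2 units (SE 0.07, limma adjusted p = 0.923), with group means of 8.58 ± 0.025 and 8.51 ± 0.11 (SD, n = 3 each). Its 95% confidence interval ran from -0.09 to 0.24, which is 0.941- to 1.18-fold. Differences inside that interval are compatible with the values of these 3 arrays per group. The same limma fit called 0 of 15522 genes in this comparison, which is 0%, with 805, or 5.19%, at an unadjusted p under 0.05.

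In sham rats Sncb fell to 8.51 ± 0.11 in hippocampus, against 8.87 ± 0.11 in parietotemporal cortex (SD, n = 3 each). The difference was -0.36 (SE 0.07, limma adjusted p = 0.0143), a hippocampal signal 0.777 times the cortical one, with a 95% confidence interval of 0.694 to 0.871. The fit called 12.4% of all genes in this comparison, and 6.46% as lower in hippocampus. By array number the difference was -0.34, -0.18 and -0.57. Any matching of the arrays gives a lower hippocampal value in all 3, since the groups do not overlap. The call did not hold with the array number as a fixed replicate block (adjusted p = 0.126, against 0.0122 with it as a random block), in a fit of the 6 sham arrays alone (adjusted p = 0.0672), without cortical array 1 (adjusted p = 0.0560) or without both sham arrays numbered 1 (adjusted p = 0.0726). The difference itself stayed between -0.43 and -0.30 in every alternative run.

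**Figure D1:**
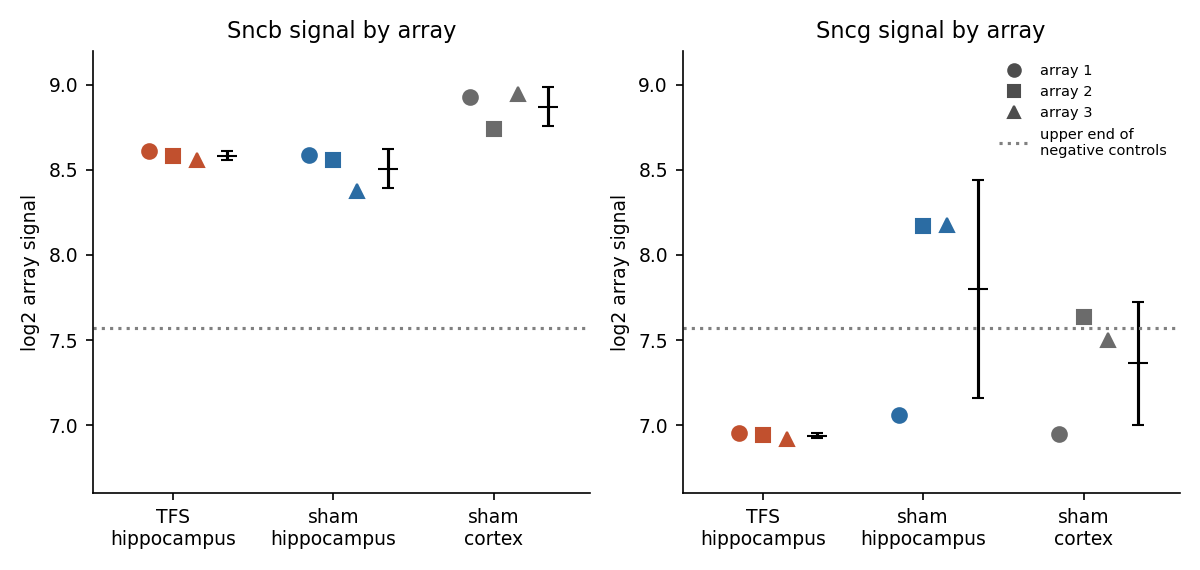
Log2 array signal of Sncb and Sncg (vertical axes) on each of the 9 arrays, by group (TFS hippocampus, sham hippocampus, sham cortex). Points are arrays, with shape for the array number, black bars are the group mean ± SD (n = 3), and the dotted line at 7.57 is the top of the background range. Sncb separates hippocampus from cortex, and Sncg has 5 arrays between 6.92 and 7.06 and 4 between 7.50 and 8.17.

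Sncg lay low and nearly equal on all TFS arrays and was split among the sham arrays of both regions. It measured 6.95, 6.94 and 6.92 on TFS hippocampal arrays 1, 2 and 3, against 7.06, 8.17 and 8.17 on sham hippocampal arrays. Sham cortical arrays gave 6.95, 7.63 and 7.50. In both regions the sham array numbered 1 was the low one, at or near the TFS level, and the sham arrays numbered 2 and 3 were high. These arrays numbered 1 also had the smallest gaps between positive and negative control probe sets. The part of this in the Sncg values was not tested. Sorted by level, the 9 arrays had 5 between 6.92 and 7.06 and then a step of 0.44 to the sixth. Only the 2 high hippocampal arrays and cortical array 2 exceeded the background range, which limits what the lower values show about the transcript.

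The spread of Sncg was among the widest of the genes tested in both sham groups, and below the median in TFS hippocampus. Its SD was 0.016 in TFS hippocampus, where 11202 of 15522 genes had a larger one. In sham hippocampus the SD was 0.64, exceeded by 11 genes, and in sham cortex 0.36, exceeded by 95. Over all genes the median SD was 0.034 in TFS hippocampus, 0.047 in sham hippocampus and 0.053 in sham cortex. For Sncb the same SDs were 0.025, 0.11 and 0.11.

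Between TFS and sham hippocampus Sncg differed by -0.86 log2 units (SE 0.31), with means of 6.94 ± 0.016 and 7.80 ± 0.64 (SD, n = 3 each). All 3 TFS arrays and sham array 1 lay within the background range, so the size of the difference cannot be read as exact. This was the largest difference in size of the 15522 genes, and it is the value that brought Sncg into view. It was not among the calls of the limma fit, which made none. All 3 TFS arrays lay below all 3 sham arrays, as they did for 1.2% of all genes, and a gap of 0.11 separated TFS array 1 from sham array 1. By array number, not read as pairs in this comparison, TFS arrays 1, 2 and 3 differed from sham by -0.11, -1.23 and -1.25. Without sham hippocampal array 1 the difference was -1.23, and without sham array 3 it was -0.68.

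In sham rats Sncg averaged 7.80 ± 0.64 in hippocampus and 7.36 ± 0.36 in cortex (SD, n = 3 each), a difference of 0.44 (SE 0.31, limma adjusted p = 0.427) with a 95% confidence interval from -0.29 to 1.17. The arrays overlapped, since hippocampal array 1 lay below cortical arrays 2 and 3. Within array numbers hippocampus was higher in 3 of 3 possible pairs, by 0.11, 0.54 and 0.67. The difference moved with the arrays numbered 1, which are the low ones for Sncg. It was 0.23 without cortical array 1 (limma adjusted p = 0.763), 0.81 without hippocampal array 1 (adjusted p = 0.0446) and 0.60 without both (adjusted p = 0.00479). Since hippocampal array 1 is low in Sncg, leaving it out removes an array by its outcome. The sham hippocampal arrays are also those of the stimulation difference on which Sncg was chosen. That choice favours a high sham hippocampal level, so the p-values here are not independent of it.

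Haemoglobin signal was high on the arrays where Sncg was high. Hbb-b1, a beta chain gene of red blood cells, measured 9.00, 8.85 and 9.15 on TFS hippocampal arrays, against 8.63, 9.83 and 10.51 on sham hippocampal arrays and 8.90, 10.21 and 10.08 on sham cortical arrays. The 4 arrays highest in Sncg were also the 4 highest in Hbb-b1, Hbb-bs, Hbb and the alpha chain gene Hba-a1. The step between the fourth and the fifth array was 0.68 in Hbb-b1, 0.56 in Hbb-bs, 0.051 in Hba-a1 and 0.027 in Hbb. The beta chain genes are close copies of each other, and whether their probes share signal was not tested. Within the high arrays the order was not shared: cortical arrays 2 and 3 exceeded sham hippocampal array 2 in Hbb-b1 and lay below it in Sncg. Nor was it shared within the low ones. Sham hippocampal array 1 was the lowest of the 9 arrays in Hbb-b1, Hbb-bs, Hbb and Hba-a1, and above all TFS arrays in Sncg.

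The whole red blood cell list had 8 of its 10 genes on the array and 6 of them tested. None was called in either comparison. The signal summed over the 8 genes on the linear scale ran from 4165 to 4438 on TFS hippocampal arrays, against 3512 to 6718 on sham hippocampal and 4048 to 5809 on sham cortical arrays. Alas2, the first enzyme of haem synthesis in red cell precursors, measured 5.85, 5.95 and 5.74 on TFS hippocampal arrays, against 5.59, 5.95 and 6.26 on sham hippocampal and 5.92, 6.05 and 6.33 on sham cortical arrays. Its correlation with Sncg was 0.59 over the 9 arrays. The membrane exchanger gene Slc4a1 lay between 5.80 and 5.90, and Ahsp, the gene of a chaperone for alpha globin, between 3.7 and 3.91. Their correlations with Sncg were 0.18 and -0.58. Hbb, Alas2, Slc4a1 and Ahsp all lay within the background range, so their levels show little about red blood cell RNA. The part of red blood cell RNA in the Sncg values was not tested. In tissue RNA fewer cells of a type and less RNA per cell cannot be told apart.

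**Figure D2:**
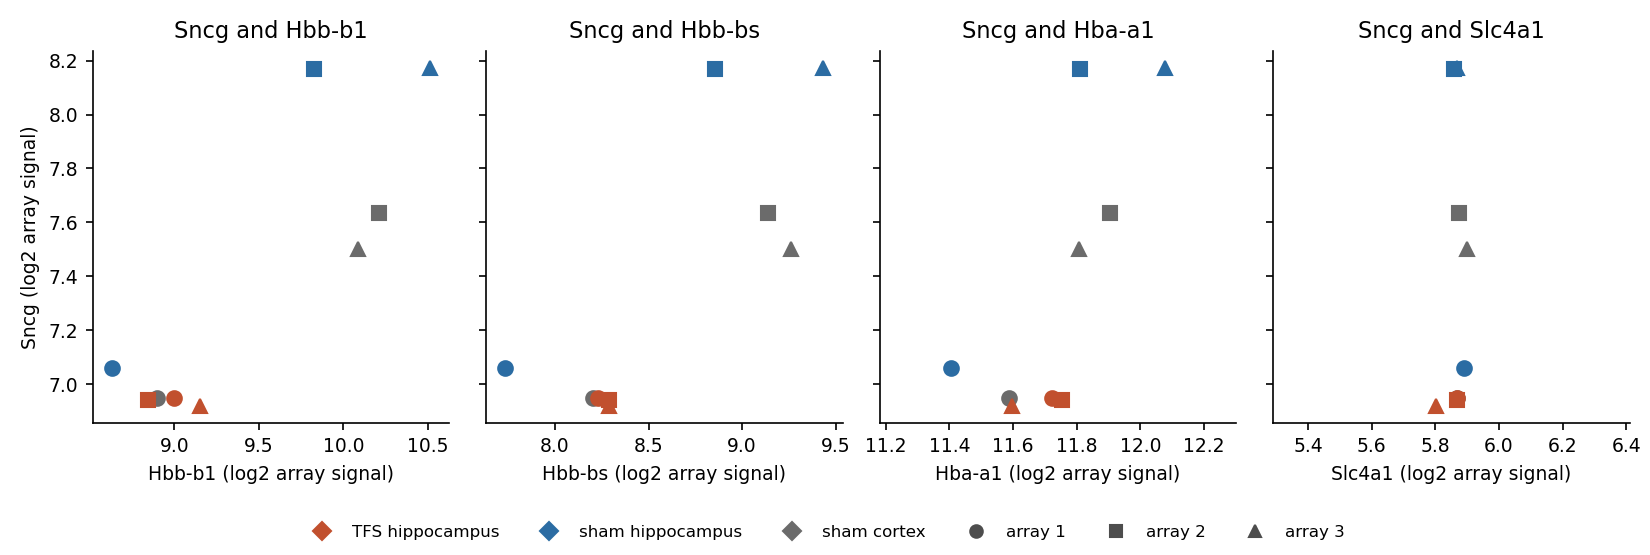
Sncg signal (vertical axis) against the signal of 3 haemoglobin genes and Slc4a1 (horizontal axes, all log2 array signal) on the 9 arrays, with colour for the group and shape for the array number. The 4 arrays with Sncg at 7.50 or above lie at the right of each haemoglobin panel, and Slc4a1 lies between 5.80 and 5.90, within the background range.

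Genes of the interneurons that Sncg marks in mouse were measured on the same arrays, and 3 of the 16 on the list had a mean above the background range. The mean over the list of cholecystokinin and Vip interneurons was 6.90 to 6.95 on TFS hippocampal arrays, against 6.91 to 6.93 on sham hippocampal and 6.57 to 6.71 on sham cortical arrays. Between TFS and sham hippocampus none of the 16 was called. Cck, the cholecystokinin gene, differed by 0.02 and Cnr1, the cannabinoid receptor of these cells, by -0.03 (limma adjusted p = 0.989 and 0.977). Between sham hippocampus and cortex 6 rose and 3 fell, where 5.99% of all genes were called higher and 6.46% lower, with Cnr1 at 0.62 and Cck at -0.59 (limma adjusted p = 0.000855 and 0.00155). The largest rises were Npy2r at 2.10 and Prox1 at 1.89, the latter also on the dentate granule cell list, while Vip was at -1.02. The means of Npy2r, Prox1 and Vip lay within the background range. The higher hippocampal list mean is therefore not a rise common to these genes. The part of these cells in the Sncg values was not tested. Of the monoaminergic neuron list, another group of cells known for Sncg, all 7 tested genes lay within the background range, and none was called in either comparison.

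The presynaptic genes around the synucleins were described with lists of vesicle fusion machinery and of proteins bound to vesicles. In TFS against sham hippocampus none of the 23 and 24 members tested, of 25 on each list, was called, and their differences ran from -0.03 to 0.17 and from -0.05 to 0.15. The list medians were 0.039 and 0.069, with 0.011 over all genes. Above 0 lay 21 of 23 and 21 of 24 members, 17 of 18 general neuron genes and 61.3% of all genes. The SNARE genes Snap25 and Vamp2 differed by 0.075 and 0.072, and the synapsin genes Syn1 and Syn2 by 0.12 and 0.13. The Sncb difference of 0.08 lay inside both ranges.

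In sham hippocampus against cortex the fusion list had 5 members lower and 2 higher of 23 tested, and the vesicle-bound list 6 lower and 1 higher of 24 tested, where the fit called 6.46% of all genes as lower and 5.99% as higher. The list medians were -0.036 and -0.059, with -0.0044 over all genes. Of the fusion genes Stx1a, the syntaxin of the release site, was at -0.96, and Syt2, a fast calcium sensor, at -1.22 (limma adjusted p = 0.000104 and 0.00134). The complexin gene Cplx3 was at -0.70, the calcium-binding Doc2a at -0.52 and the active zone scaffold Rims1 at -0.28, while Cplx2 at 0.21 and Doc2b at 0.62 were higher. Of the vesicle-bound genes the Rab3 effector Rph3a was at -0.60, Rab3b at -0.52 and the synapsin Syn3 at -0.40 (limma adjusted p = 0.00194, 0.00667 and 0.0130). Sv2c, Syn1 and Sv2a were lower by smaller amounts, and Syn2 was higher at 0.19. The means of Syt2, Cplx3, Doc2a, Doc2b and Sv2c lay within the background range. Vamp2 and Snap25 were not called, at -0.04 and -0.10. With the array number as a fixed replicate block 3 and 4 members of the lists were called in place of 7 and 7, and with it as a random block 9 and 8. Over all genes the fixed block called 982 in place of 1931.

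**Figure D3:**
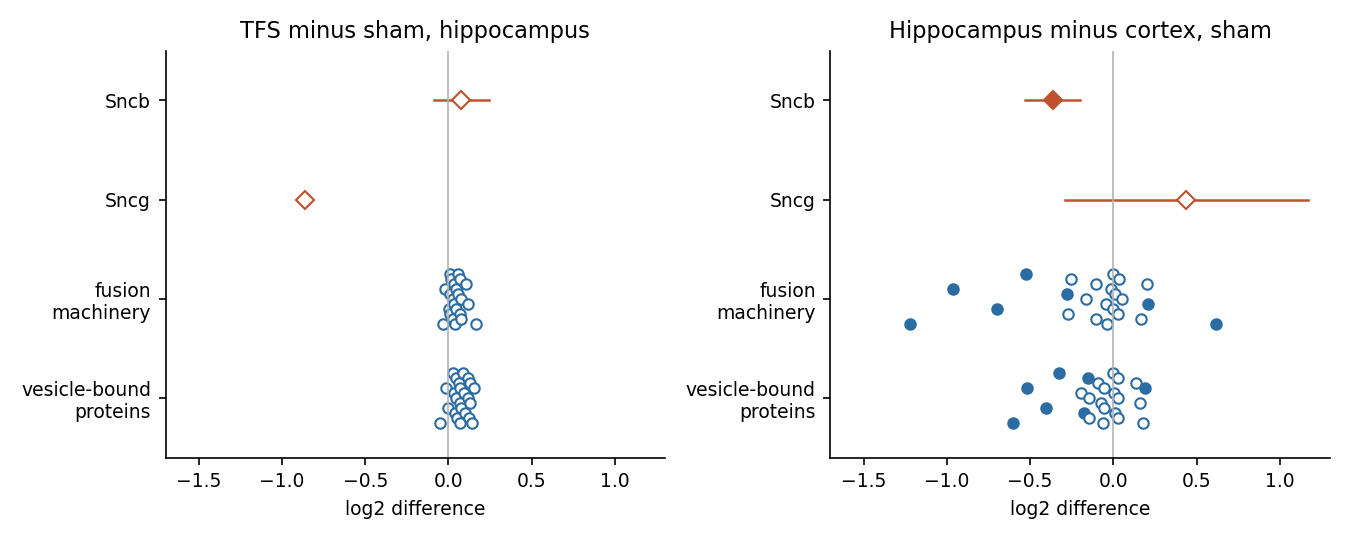
Log2 differences (horizontal axes) of Sncb, Sncg and the tested members of both presynaptic lists, for TFS minus sham hippocampus (left) and sham hippocampus minus sham cortex (right). Filled symbols passed an adjusted p of 0.05 by limma, and red lines are 95% confidence intervals, not drawn for Sncg on the left, where its difference is a description. In the left panel the lists span -0.05 to 0.17 and Sncg, chosen on this difference, is at -0.86. In the right panel Sncb at -0.36 lies within the lists.

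Sncb and Sncg had a Pearson correlation of -0.31 over the 9 arrays. Such correlations are given as a measure of likeness, over arrays that fall into regions and separate levels. Over the 9 arrays the 5 tested genes most like Sncb were Srrm4, a splicing regulator of neurons, at 0.988, Fam219a at 0.983, the transcription factor gene Etv5 at 0.980, the calmodulin kinase gene Camk1g at 0.979 and the synapse adhesion gene Slitrk1 at 0.975. Each had its lowest group mean in sham hippocampus and its highest in sham cortex, as Sncb had. At the other end stood Rfx3 at -0.973, Mrap2 at -0.967, Rps28l1 and Ccdc85a at -0.966 and the glutamate receptor gene Grm5 at -0.964.

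The genes most like Sncg over the 9 arrays were Rpl36Al2 at 0.946, Zng1a at 0.896, Rpl38l1 at 0.883, Slco1c1, a thyroid hormone transporter of the blood-brain barrier, at 0.881 and Ppig at 0.878. Their own SD over the arrays was 0.047 to 0.13, against 0.525 for Sncg. Hbb-b1 came eighth of 15424 genes at 0.86, and 27 genes, 0.175%, reached 0.80. At the other end were Pcdhgc5 at -0.911, Twf2 at -0.897, Capn5 at -0.892, Sirt6 at -0.889 and Tmed4 at -0.888. Within the 6 hippocampal arrays the nearest to Sncg were Cenpc and Arhgef28 at 0.997, Stambpl1 at 0.996, the serine synthesis gene Phgdh at 0.994 and Zng1a at 0.990, and 4 of these 5 had 3 or 4 distinct values on the 6 arrays. The nearest to Sncb there were Ulk1 at 0.995, the inhibitory synapse adhesion gene Nlgn2 at 0.994, Tgfb1 at 0.993, Bag6 at 0.992 and Apol3l1 at 0.991. These values over 6 arrays are descriptions only.

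**Figure D4:**
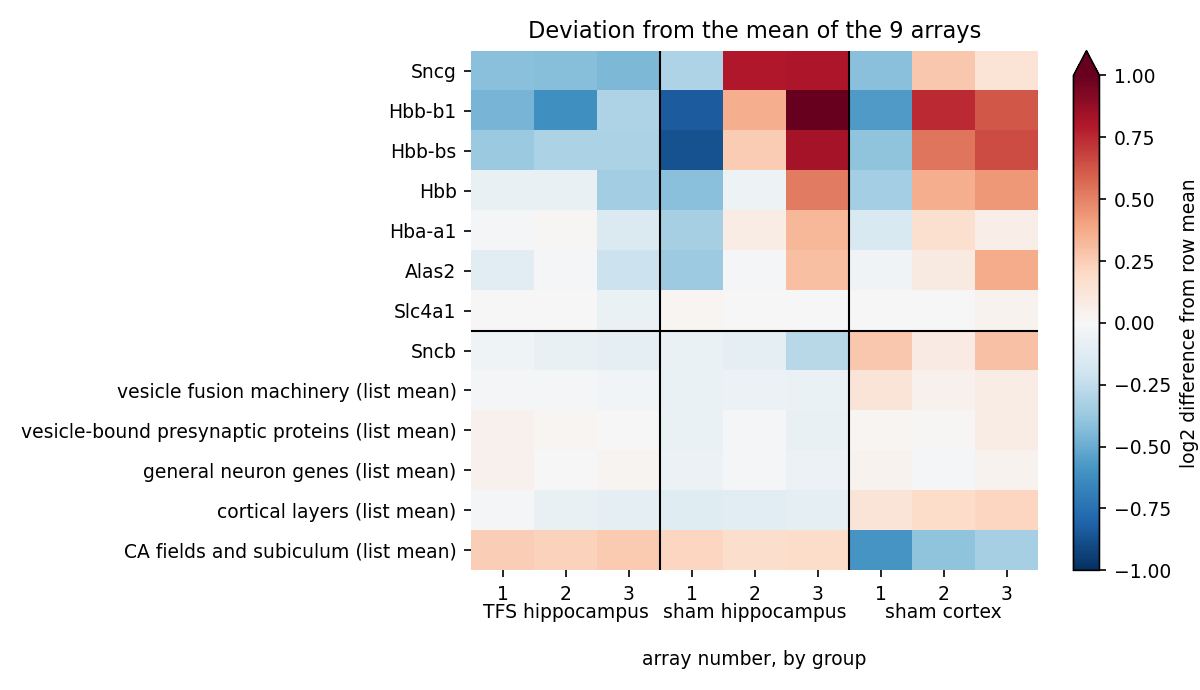
Deviation of each array from the mean of the 9 arrays (colour, log2 units, red for higher and blue for lower, values above 1 at the end of the scale) for Sncg and red blood cell genes above the black line, and for Sncb and list means below it. Columns are arrays 1 to 3 of TFS hippocampus, sham hippocampus and sham cortex. Sncg and Hbb-b1 are red on sham arrays 2 and 3 of both regions and blue on the other 5 arrays, and Sncb and the cortical layer list are red on the cortical arrays.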

How the data were processed

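The authors deposited 1 table of log2 array signal for 70580 rows on 9 arrays. RMA and limma are named in the submitters' processing notes, without version, order or role. The build behind the probe annotation is not stated in them. RMA summarises probes by median polish, which can leave equal values on several arrays.

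After 1738 control rows were left out, 23446 of 68842 rows had 1 symbol in the platform annotation, 505 several and 44891 none. The brightest row stood for each of 22093 genes. Tests covered the 15522 whose mean reached 4.99 (the row means' median), Sncb and Sncg among them. The limma package (3.58.1, R 4.3.3; lmFit, eBayes) estimated a mean for each group from the 9 arrays, with two-sided p-values adjusted by Benjamini-Hochberg over all genes tested and a threshold of 0.05. The fit was tested on simulated data. With 3 arrays per group no exact permutation p is smaller than 0.1. Arrays have no read depth, and their number limits the precision.

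The members and the 16 gene lists were chosen with earlier results of these data known. Named are both members, all genes of the presynaptic lists, up to 4 of the brightest genes of other lists, and the 5 genes nearest to and farthest from each member by correlation. Slc4a1, Hbb, Ahsp, Tspy26, Npy2r, Prox1 and Vip, outside this rule, were named after their values were seen. List members without a row are not analysed here.

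Deviations from group means of sham hippocampal and cortical arrays of one number correlated at 0.416, 0.202 and 0.252 across genes. Such deviations cancel within a group, which builds part of the contrast with unlike numbers in. The numbers were read as possible pairs of these arrays. The main fit, which gave the p-values of the regional comparison, did not use these pairs, and only the replicate blocks did. Alternatives were other filters, rows, scalings, variance options, array weights, blocks and arrays left out.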

Additional observations from a re-analysis of the deposited data

How the results depend on the processing

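The directions of all 4 differences of Sncb and Sncg were the same under the 17 alternatives run for each. For TFS minus sham hippocampus Sncb ranged from 0.01 to 0.13 and Sncg from -1.23 to -0.68. For sham hippocampus minus cortex Sncb lost its call in the fit of the 6 sham arrays (-0.36, limma adjusted p = 0.0672), with the fixed replicate block (-0.36, adjusted p = 0.126, or 0.0122 with a random one) and without both sham arrays numbered 1 (-0.38, adjusted p = 0.0726). Sncg gained one without both sham arrays numbered 1 (0.60, adjusted p = 0.00479). Leaving out both was chosen after seeing the data, and the sham hippocampal arrays also entered the difference on which Sncg was chosen. Leaving out 1 array gave -0.43 to -0.30 for Sncb, without a call when cortical array 1 was left out (adjusted p = 0.0560), and 0.23 to 0.81 for Sncg, with a call when hippocampal array 1 was left out (adjusted p = 0.0446). Leaving out 1 array gave 0.01 to 0.12 for Sncb and -1.23 to -0.68 for Sncg between TFS and sham hippocampus. The causes were not tested.

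In the stimulation comparison limma called 0 genes, and 805 had an unadjusted p under 0.05. It called 1 with array weights, Tspy26, and 1 without both sham arrays numbered 1, which was Sncg. Both of those arrays are the low ones of their regions for Sncg, so the last call is no independent support. Without the hippocampal one alone the Sncg difference was also -1.23, and 0 genes were called. Same-numbered TFS and sham arrays had deviations with correlations of -0.111, -0.287 and -0.025, so their numbers were not read as pairs. The replicate block left the count at 0. The regional comparison called 1931 genes, 1211 in the 6 sham arrays and 982 with the fixed replicate block, and 1285 to 2183 with 1 array left out. Members of all lists called there numbered 64, or 39 with the fixed replicate block, 41 without both sham arrays numbered 1 and 44 to 67 with 1 array left out. The main fit called 12.4% of all genes there, and the lists hold regional markers chosen with earlier results known. For Sncg 6 of 9 arrays lay within the background range, which limits how well its low level is measured.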

Other observations

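The other cell type lists describe the tissue in which Sncb and Sncg were measured. None of their members was called between TFS and sham hippocampus. Between sham hippocampus and cortex 4 of 14 tested choroid plexus and ependyma genes rose and none fell. All 14 differences were above 0, as were 46.6% of those of all genes. Of 11 meningeal and fibroblast genes 2 fell and none rose, and none of their differences was above 0. Of 6 red blood cell genes none was called and none was above 0. The CA field list had 7 higher and 1 lower of 14, the dentate granule cell list 3 higher and 1 lower of 10, and the cortical layer list 2 higher and 7 lower of 16. Of the general neuron genes 3 of 18 rose and 4 fell, and of the other interneuron genes none of 15 rose and 4 fell. The thalamus and habenula list had 2 higher and 1 lower of 11. Oligodendrocyte genes had 1 of 9 higher, with all 9 differences above 0, astrocyte genes 1 of 10 higher and microglial genes none of 9 called. The limma fit called 12.4% of all genes in this comparison. The part of these differences in the values of Sncb and Sncg was not tested.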
